A study of Mus musculus with 82 samples.

Results

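The genomic binding of Eomes carrying a V5 tag (EoV5) was compared with that of Eomes joined to the VP16 activation domain (EoVP16), each mapped by ChIP-seq in 1 library. Both peak lists were taken whole. EoV5 gave 38193 peaks and EoVP16 gave 36203 peaks on the assembled chromosomes, 74396 of the 132113 peaks in the 4 single-construct peak lists of the series. The series holds 82 mouse samples (66 RNA-seq, 12 ChIP-seq and 4 ATAC-seq), and asks how Eomes and Brachyury act when embryonic stem cells leave pluripotency. Both libraries came from A2lox.Cre mouse embryonic stem cells that lack Eomes and Brachyury (dKO) and carry 1 doxycycline-inducible construct. The cells were grown as embryoid bodies, received activin A at 30 ng/ml together with doxycycline from day 2, and were taken on day 5 for ChIP with the same anti-V5 antibody. The only difference between them in the labels is the construct, EoV5 or EoVP16, and the labels do not say which part of Eomes the VP16 fusion retains. A further pair of constructs, Eomes with GFP (EoGFP) and Brachyury with GFP (BraGFP), were induced in the same dKO background and each gave 1 list from 2 libraries, used here to look up sites. Those lists were made with other minima, so shares found in them are set by those too. The embryoid bodies are mixed cultures, and peak lists cannot show which cell types they held.

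Eomes is a T-box transcription factor of the primitive streak that binds DNA through its T-box domain and is needed for definitive endoderm and anterior mesoderm. VP16 is a strong transcriptional activation domain of herpes simplex virus, and fusions to it are a common way of turning a DNA-binding protein into an activator. T-box proteins recognise variants of a short element with the core TCACACC, or GGTGTGA on the other strand.

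To show the element at sites of both lists and at sites of 1 list alone, 6 promoters were chosen with TCACACC or GGTGTGA in the 250 bases before the gene start and a summit (the highest point of a peak) near that start. The letters are from RefSeq on GRCm38.p6, run 5′ to 3′ on the strand of the gene, and the element is in capitals. Ccdc163 (chr4:116708345-116708594, plus strand) and Rnf41 (chr10:128411366-128411615, plus) had the tallest EoVP16 peaks among such promoters where both lists had a summit. Atf4 (chr15:80254934-80255183, plus) and Ripply2 (chr9:87015287-87015536, plus) are members of the gene lists used below. Among all promoters with the element and a summit near the start, Ntmt1 (chr2:30807718-30807967, plus) had the tallest peak found in EoVP16 alone. Fgf5 (chr5:98253934-98254183, plus) had the tallest found in EoV5 alone among them.
Ccdc163: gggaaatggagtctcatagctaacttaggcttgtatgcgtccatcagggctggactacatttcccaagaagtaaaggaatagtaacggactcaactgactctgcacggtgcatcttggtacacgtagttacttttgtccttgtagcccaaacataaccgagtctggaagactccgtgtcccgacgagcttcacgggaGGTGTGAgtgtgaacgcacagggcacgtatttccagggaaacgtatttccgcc
Rnf41: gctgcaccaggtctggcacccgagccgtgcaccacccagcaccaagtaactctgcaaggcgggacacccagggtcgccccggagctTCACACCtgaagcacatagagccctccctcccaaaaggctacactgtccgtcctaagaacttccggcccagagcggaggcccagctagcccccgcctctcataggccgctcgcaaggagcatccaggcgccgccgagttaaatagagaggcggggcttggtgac
Atf4: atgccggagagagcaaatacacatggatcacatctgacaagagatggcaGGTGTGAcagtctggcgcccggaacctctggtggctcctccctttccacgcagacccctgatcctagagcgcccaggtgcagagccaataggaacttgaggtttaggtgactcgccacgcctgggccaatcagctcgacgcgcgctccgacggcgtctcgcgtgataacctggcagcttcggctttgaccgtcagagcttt
Ripply2: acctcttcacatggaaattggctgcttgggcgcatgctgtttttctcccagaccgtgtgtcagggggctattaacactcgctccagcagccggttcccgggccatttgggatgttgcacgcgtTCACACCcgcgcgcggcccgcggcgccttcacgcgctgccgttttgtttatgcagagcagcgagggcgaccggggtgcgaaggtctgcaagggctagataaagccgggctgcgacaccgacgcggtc
Ntmt1: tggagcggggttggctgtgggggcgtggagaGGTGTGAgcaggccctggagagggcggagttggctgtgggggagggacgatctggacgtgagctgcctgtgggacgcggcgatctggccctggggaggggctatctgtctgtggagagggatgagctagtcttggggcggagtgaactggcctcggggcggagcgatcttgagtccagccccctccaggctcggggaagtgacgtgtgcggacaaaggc
Fgf5: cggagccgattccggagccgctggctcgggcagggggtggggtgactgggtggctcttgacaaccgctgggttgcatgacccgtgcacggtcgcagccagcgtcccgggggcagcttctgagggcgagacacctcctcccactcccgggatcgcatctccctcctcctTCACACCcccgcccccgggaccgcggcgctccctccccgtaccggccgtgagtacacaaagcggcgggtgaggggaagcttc
Peak height is the pileup, the number of overlapping fragments at the summit. At Ccdc163 the element lay 69 bp from the EoV5 summit (399 fragments) and 59 bp from the EoVP16 summit (281 fragments). At Rnf41 the distances were 35 bp and 11 bp, with 317 and 266 fragments. The promoter of Atf4, a stress-response transcription factor, had 194 and 138 fragments at 2 bp and 27 bp from the element. Ripply2, a regulator of somite formation, had 108 fragments 37 bp away in EoV5 and 69 fragments 17 bp away in EoVP16. The Ntmt1 summit of EoVP16 (102 fragments) was 10 bp from the element, and no EoV5 peak overlapped it. The Fgf5 summit of EoV5 (368 fragments) was 18 bp from the element, and no EoVP16 peak overlapped it. Fgf5 encodes a growth factor of the epiblast.

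The lists differ in how deep their minimum lies. The lowest pileup was 61 in EoV5 and 36 in EoVP16. The lowest background set by the caller, worked back from pileup and fold enrichment, was 6.008 fragments for EoV5 and 4.985 for EoVP16, so the minima stand at 10.2 and 7.22 times that background. A site missing from a list may therefore lie just under its minimum, and pileups are compared below by rank within each list. With 1 library per construct no test between them was possible. Intervals are 95% Wilson intervals for shares and exact Poisson intervals for pileups, and both cover counting error only.

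EoVP16 had a larger share of its peaks at gene starts than EoV5. Peaks with a midpoint within 1 kb of a coding start made up 14.2% of EoV5 peaks (5247 of 36916, 95% interval 13.9 to 14.6) and 25.2% of EoVP16 peaks (8851 of 35144, 24.7 to 25.6). EoGFP was at 24.9% and BraGFP at 14.2%, so EoV5 and EoGFP, the forms of Eomes without VP16, themselves differed. Of the EoV5 peaks at starts, 96.0% overlapped an EoVP16 peak, against 46.3% of EoV5 peaks farther away. In EoVP16 the shares were alike, 57.5% at starts and 56.8% farther away. Peaks found in EoV5 alone were almost absent from starts, with 212 of 17229 (1.23%, 1.08 to 1.41), while 3758 of 15123 peaks found in EoVP16 alone were there (24.9%, 24.2 to 25.5). Shared peaks sat at starts at a rate close to that of the EoVP16-only peaks (25.6% by EoV5 and 25.4% by EoVP16 coordinates). With EoVP16 held to the background multiple of the EoV5 minimum (20373 peaks kept), 2.87% of EoV5-only and 35.9% of EoVP16-only peaks were at starts. Both shares were higher than in the whole lists, and EoVP16-only peaks were still the ones more often at starts.

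Height ran in opposite directions at starts. In EoV5 the share of peaks at starts was 17.7% in the lowest 10% by pileup (61 to 66 fragments), 15% in the sixth step of 10% and 3.57% in the tallest 10% (272 to 3296 fragments). In EoVP16 it was 10.4% in the lowest 10% (36 to 38 fragments), 32.3% in the sixth step of 10%, 37.5% in the ninth and 25.2% in the tallest (102 to 1379 fragments). The tallest EoV5 peaks were thus the ones least often at starts, and the EoVP16 peaks most often at starts were tall but not the tallest.

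**Figure D1:**
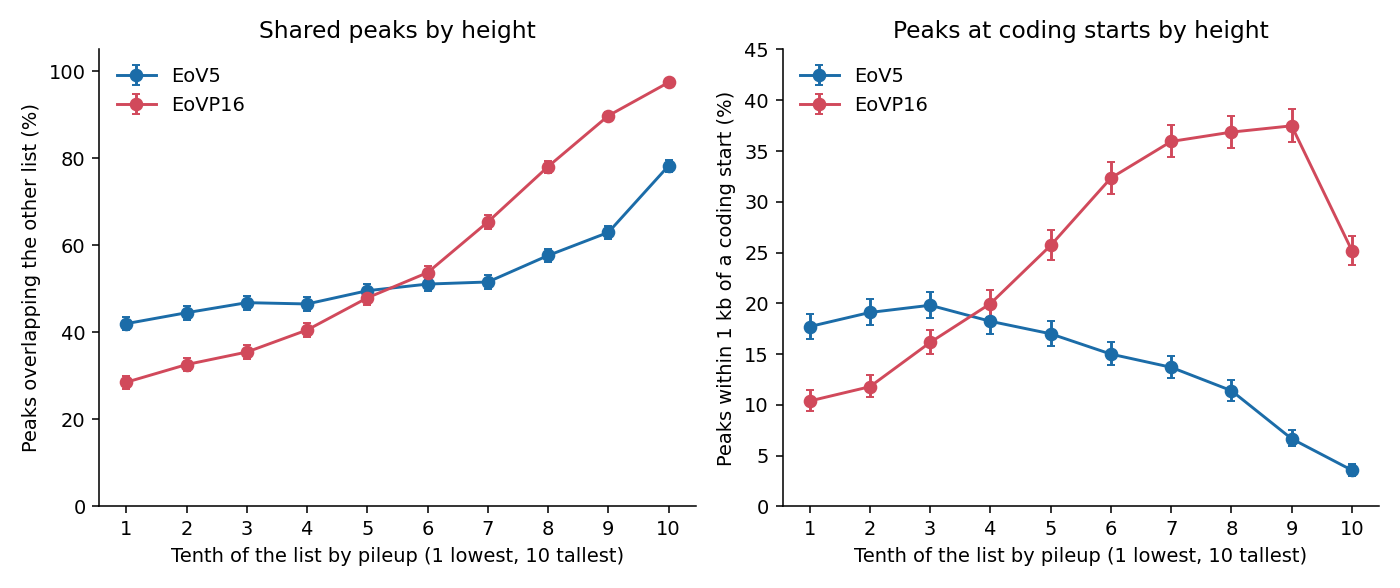
Share of peaks that overlap the other list (left) and share within 1 kb of a coding start (right), in percent, for each 10% step of the EoV5 and EoVP16 lists by pileup, with 95% Wilson intervals as bars. The share at starts falls to 3.57% in the tallest 10% of EoV5, while in EoVP16 it reaches 37.5% in the ninth step.

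At sites in both lists, pairs at starts mostly held a higher rank in EoVP16 than in EoV5. Each of the 19708 pairs in which 1 EoV5 peak met 1 EoVP16 peak was given a height percentile among the pairs in each list. Ranks of the same pairs have the same mean in both lists, so a higher mean rank at starts entails a lower one elsewhere, and the reverse. The ranks thus show a difference between the places, and cannot tell in which of them the height changed. At starts the median percentile was 31.8 in EoV5 (median 85 fragments) and 61.1 in EoVP16 (74 fragments), and 4280 of 4846 pairs (88.3%, 87.4 to 89.2) ranked higher in EoVP16. Farther from starts the medians were 57.8 (125 fragments) and 43.6 (61 fragments), and 6186 of 14285 pairs (43.3%, 42.5 to 44.1) ranked higher in EoVP16. Across pairs, which share 2 libraries and are not independent replicates, Spearman's rho of the pileups was 0.54 at starts and 0.34 farther away. At starts, pairs that also overlapped a BraGFP peak ranked higher in EoVP16 more often (92.9% against 83.1% of those without one). Farther away the shares were 61.7% and 37.0%. The level in each place depends on the ranks in the other. Pairs in BraGFP were also wider, with a median EoV5 width farther from starts of 1083 bp against 866 bp. The part of width in the rank was not tested.

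**Figure D2:**
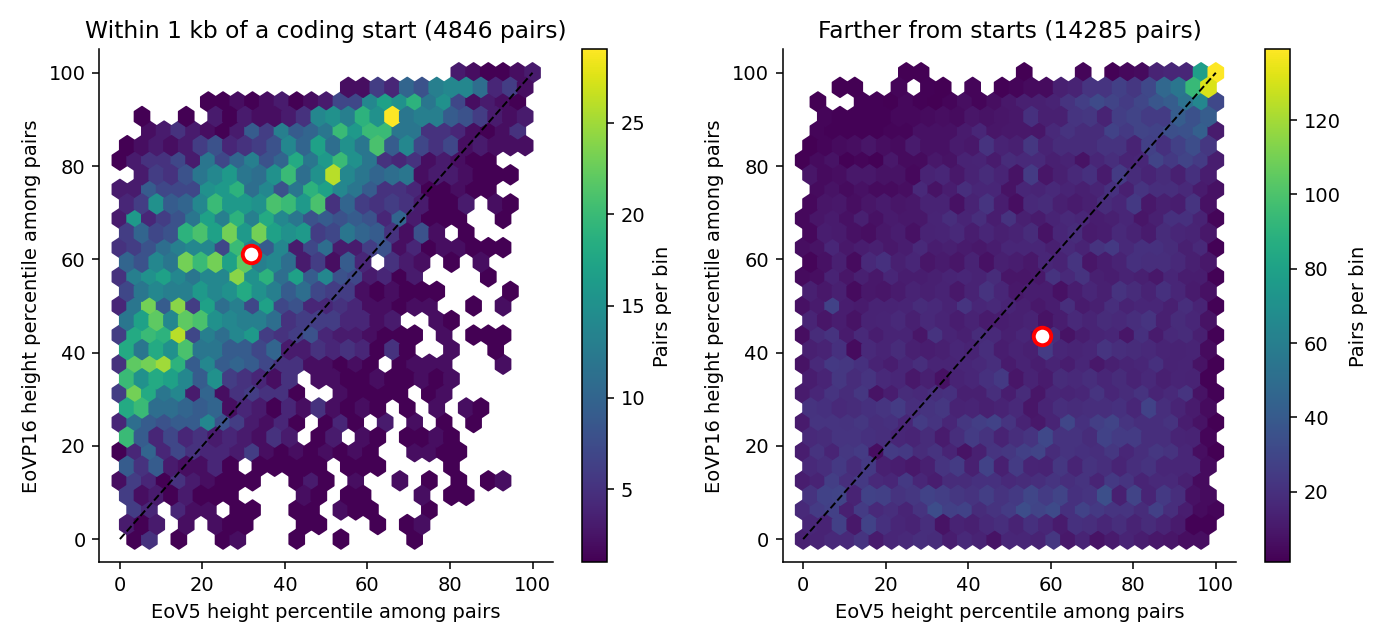
Height percentile of each shared pair in EoV5 (x axis) and in EoVP16 (y axis), for pairs within 1 kb of a coding start (left) and farther away (right), with pairs per bin as colour, equal ranks as the dashed line and the medians as a ringed point. At starts 88.3% of pairs lie above the line, and farther away 43.3% do.

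The single pairs with the largest shifts show the range. Inside Ifitm10 the EoV5 peak (chr7:142349079-142349942) had 62 fragments (Poisson interval 47.5 to 79.5), at the 2.39 percentile, and the EoVP16 peak had 140 (118 to 165), at the 93.1 percentile, with summits 30 bp apart. The next shifts towards EoVP16 were 68.7 kb from Arrdc4 (66 against 191 fragments), inside Nek4 (63 against 132), inside Sgpp2 (63 against 126) and 60.5 kb from Sall4, a zinc-finger factor of pluripotent cells (63 against 126). None of these 5 EoV5 peaks exceeded 66 fragments, so each lay just above the minimum of that list. In the other direction a peak inside Ttc39b (chr4:83321497-83322541) stood at 647 EoV5 fragments (598 to 699) against 36 EoVP16 fragments (25.2 to 49.8). A peak inside Car2, a carbonic anhydrase gene, had 602 against 36. The other 3 lay 52.3 kb from Slc24a4 (829 against 37), 665 kb from Gm44812 (603 against 36) and 32.4 kb from Rhoj (514 against 36). The EoVP16 peaks of these 5 pairs lay at or just above the EoVP16 minimum, and all 5 EoV5 peaks were also in EoGFP.

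Summits mostly lay close together at sites in both lists. The median distance between paired summits was 26 bp, 70.4% of pairs were within 50 bp (69.8 to 71.0), and 301 pairs were over 1000 bp apart. In pairs from the tallest 10% of both lists (805 pairs) the median was 11 bp and 93.7% were within 50 bp. At starts the median was 51 bp against 22 bp farther away, where peaks were narrower. With both peaks at most 1000 bp wide the medians were 31 bp (454 pairs) and 20 bp (7539 pairs), so part of the gap at starts went with width.

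**Figure D3:**
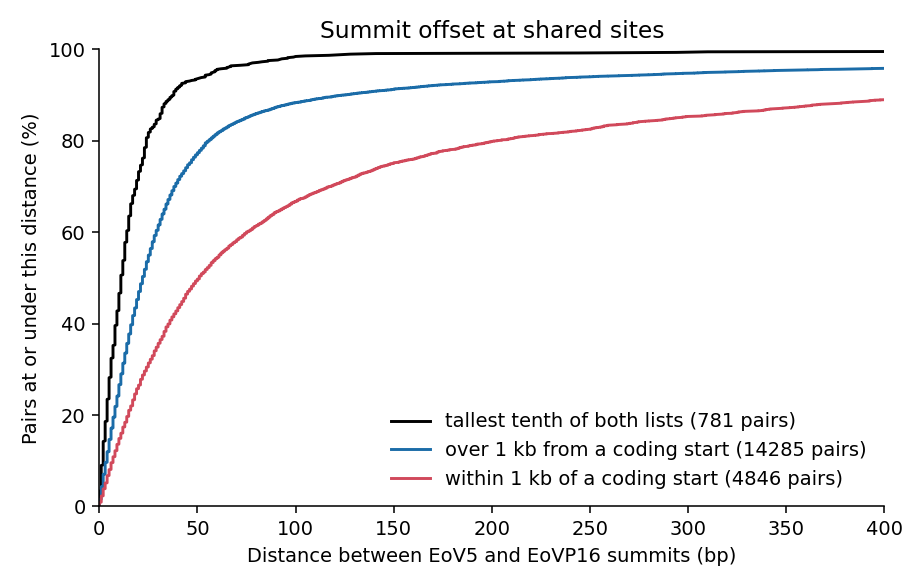
Share of shared pairs (y axis, percent) whose EoV5 and EoVP16 summits lie at or under a given distance (x axis, bp), for pairs in the tallest 10% of both lists, pairs over 1 kb from a coding start and pairs within 1 kb, chromosome 18 left out. About 77.4% of pairs away from starts and 49.75% of pairs at starts lie within 50 bp.

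Many sites of 1 list alone were found again with another tag. Of the 17913 EoV5-only peaks, 38.7% (38.0 to 39.4) overlapped an EoGFP peak, and of those in the tallest 20% of EoV5 90.8% (2037 of 2244) did, against 12.8% in the lowest 20%. All 8 of the tallest EoV5-only peaks were in EoGFP. The tallest (chr14:63455696-63457284, 1377 fragments, 1305 to 1452) lay inside Fam167a, and others lay inside Rbfox3 (1062), Ptprr (923), Ofcc1 (909) and A4gnt (892). The other 3 lay 8.63 kb from Olfr461 (1147 fragments), 146.5 kb from Slc39a11 (1093) and 60.3 kb from Dtnbp1 (894). All 8 stood above the 99 percentile of EoV5, with no peak at all in EoVP16, whose list reaches down to 36 fragments.

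EoVP16-only peaks had a different distribution over the other lists. Of 15586, 27.8% overlapped EoGFP (27.1 to 28.5) and 16.4% overlapped BraGFP (15.8 to 17.0), against 7.15% of EoV5-only peaks in BraGFP. Those at starts were in EoGFP in 56.4% (2119 of 3758), and those farther away in 18.3% (2082 of 11365). In the tallest 20%, 48.2% of 463 were in EoGFP and 44.9% in BraGFP. Of the 8 tallest, 5 were in BraGFP, and 2 of these were not in EoGFP. One of the 2 lay inside Zeb2, a zinc-finger repressor of E-cadherin (chr2:45067079-45067879, 190 fragments, 164 to 219), and the other lay 19.8 kb from Cst7 (204). The 3 in both lay 48.7 kb from Olfr161 (584 fragments, 538 to 633), 10 kb from Spry4 (259), which encodes a feedback inhibitor of FGF signalling, and inside Pknox2 (220). The other 3, inside Rnf24 (170), 510 kb from Ipo11 (165) and 251 kb from Jun (164), were in neither list.

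At the level of single genes, 53.2% of the 17492 coding genes with a listed start had an EoVP16 peak within 1 kb of it and 32.3% had an EoV5 peak. Both lists had such a peak at 5428 genes (31%), EoVP16 alone at 3878 (22.2%) and EoV5 alone at 217 (1.24%). An EoGFP start peak was found at 91.8% of the first class, 58.6% of the second (57.1 to 60.2) and 56.2% of the third (49.6 to 62.7). Cytosolic ribosomal protein genes, 19 with a listed start, had 8 with both and 11 with EoVP16 alone. Heat shock and proteotoxic stress genes had 10 with both, 3 with EoVP16 alone and 2 with none, of 15. The Notch pathway had 10, 5 and 2 of 17. Markers of lens, skeletal muscle and olfactory cells had 1 start with EoVP16 alone and 10 with none, of 11. With EoVP16 at the matched background multiple the 3 classes held 5005, 2041 and 640 genes.

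Peaks were then counted within 50 kb of each coding gene. A gain was called where EoVP16 had at least 2 times the EoV5 peaks and at least 3 more, and a loss in the reverse case. Of 19223 genes with a peak, 2545 were gains (13.2%) and 791 were losses (4.11%). This balance depends on the minimum of each list. With EoVP16 at the matched background multiple, which by construction can only remove EoVP16 peaks, gains numbered 354 and losses 2959. With the 20000 tallest peaks of each list they numbered 2917 and 584. Of the original calls, 337 gains and 273 losses were called in all 3 settings. Losses cannot fail the matched setting, where all 791 were kept. EoGFP, which also lacks VP16, had more peaks than EoV5 at 1991 of the 2545 gains and fewer at 149. At the 791 losses it had more at 13 and fewer at 730. Over all 19223 genes it had more at 6294 and fewer at 7333. The calls select on the EoV5 count itself, and the part of that selection in these counts was not tested.

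Gains and losses fell at genes of different shape. The median gained gene spanned 13.1 kb with 4 coding starts in its window, and the median lost gene spanned 56 kb with 1 start. Among the longest 20% of genes 6.53% were gains and 9.70% losses, and among the shortest 20% 15.5% were gains and 1.69% losses. In gained windows (chromosome 18 left out) the mean number of peaks at starts was 0.979 in EoV5 and 2.88 in EoVP16, and farther from starts 1.39 and 3.85. In lost windows it was 0.660 and 0.686 at starts and 6.14 and 1.72 farther away. Losses thus came from peaks away from starts, and gains from both places. Counting each peak for its nearest gene alone left 420 gains and 802 losses.

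Among the 10 separate loci with the largest gains, Btn2a2, a butyrophilin gene beside the histone cluster, had 6 EoV5 and 20 EoVP16 peaks, and Sptbn4, a spectrin gene, had 5 and 17. Ercc1, a DNA repair nuclease subunit, had 3 and 14, Per1, a circadian clock gene, 7 and 18, Ctdnep1 3 and 13, and Stk11, a kinase upstream of AMPK, 3 and 13. Acot7, Gm15319 and Nfix each had 5 and 15, and Fam110a had 0 and 9. Gm15319 had 0 EoGFP peaks, unlike the others. Ercc1, Ctdnep1, Stk11 and Fam110a were also gains in both threshold settings above. The largest losses were very long genes. Sdk1, a cell adhesion gene of 974 kb (chr5:141241497-142215586), had 35 EoV5 and 9 EoVP16 peaks. Fhit had 29 and 10, Dab1 29 and 12, Ptprn2 28 and 13, Cdh13 24 and 8, Ryr2 23 and 7, and Dock1 21 and 8. Rftn1 (20 and 5) and Npas2 (17 and 4) span 197 kb and 170 kb. All 9 named here were losses in both threshold settings.

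Definitive endoderm genes had fewer EoVP16 than EoV5 peaks. The 16 genes summed to 104 EoV5 and 68 EoVP16 peaks, with a median difference of -2, and 10 had fewer, 2 more and 4 as many. Over all 21887 coding genes the median difference was 0, with 5425 having fewer and 9685 more. There were 4 losses (background 4.11%) and no gain (13.2%). Cxcr4, a chemokine receptor of endoderm cells (chr1:128588199-128592299), had 9 EoV5 peaks of 63, 63, 64, 65, 87, 92, 99, 108 and 301 fragments. EoVP16 had 1, of 73 fragments, at the gene start and shared with the EoV5 peak of 92. The EoV5 peak of 301 fragments (268 to 337; chr1:128548916-128550449), past the 3′ end of the gene, was also in EoGFP. EoGFP had 2 peaks in all within 50 kb of Cxcr4. Around the 15 endoderm genes outside chromosome 18, 8 of 47 EoV5-only peaks were in EoGFP, against 5197 of 13034 around all coding genes. For EoVP16-only peaks these counts were 2 of 15 and 4028 of 13246.

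Sox17, an endoderm transcription factor, had 6 EoV5 peaks of 62 to 160 fragments and 2 EoVP16 peaks of 38 and 56. Gata6 had 5 (72 to 205) and 2 (58 and 63). At Sox17 none of the 4 EoV5-only peaks was in EoGFP, while at Gata6 all 3 were. Foxa2, a forkhead factor of endoderm and node, had 9 and 5 peaks, short of the call. At Foxa2 the 5 EoVP16 peaks (43 to 152 fragments) all overlapped EoV5 peaks, and the 4 EoV5-only peaks, of 69, 139, 147 and 227 fragments, had midpoints 13.5 to 35.9 kb upstream of the 5′ end of the gene. None of those 4 was in EoGFP. Prdm1, a zinc-finger repressor, had 13 and 8 peaks, Gata4 10 and 7, and Foxa1 8 and 8. With the 20000 tallest peaks of each list 1 of the 16 was a loss, against 584 of all genes. It was Foxa2, and none of the 4 losses called above kept the call. At the matched multiple, which removes EoVP16 peaks only and so can only add losses, 9 were losses, against 2959 of all genes.

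**Figure D4:**
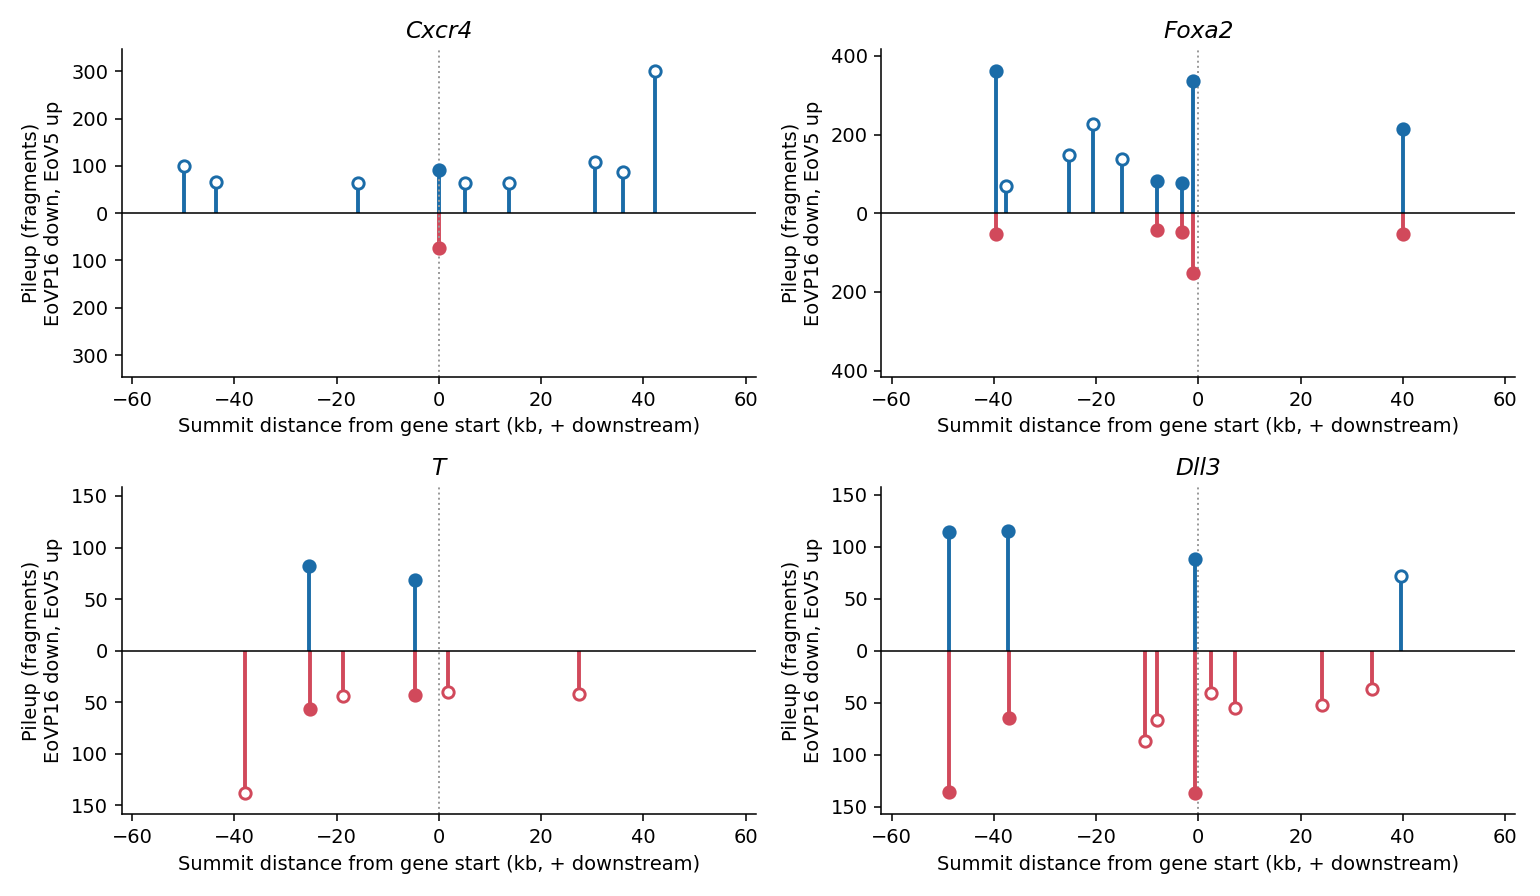
Peaks within 50 kb of Cxcr4, Foxa2, T and Dll3, with EoV5 pileup upwards and EoVP16 pileup downwards (y axis, fragments) against the distance of the summit from the gene start (x axis, kb, positive in the direction of transcription; for Foxa2 the start plotted lies inside the gene's span). Filled points are shared and open points are found in 1 list alone: 8 of 9 EoV5 peaks at Cxcr4 are open, and 4 of 6 EoVP16 peaks at T are open.

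Posterior and presomitic mesoderm genes had more EoVP16 than EoV5 peaks. The 17 genes summed to 64 and 91, with a median difference of 2, and 12 had more and 5 fewer. There were 4 gains (background 13.2%) and 1 loss (4.11%). T, which encodes Brachyury (chr17:8434423-8442496), had 2 EoV5 peaks, of 82 and 69 fragments, and 6 EoVP16 peaks, of 138, 57, 44, 43, 42 and 40. The peak of 138 fragments (116 to 163; chr17:8396083-8397723), 37.5 kb upstream, stood in the top 5% of EoVP16 at the 95.9 percentile, overlapped EoGFP and BraGFP and had no EoV5 peak. The other 3 EoVP16-only peaks at T were under 45 fragments, near the list minimum.

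Tbx6, a T-box factor of presomitic mesoderm, had 5 EoV5 peaks and 11 EoVP16 peaks, and the 6 EoVP16-only peaks had 37 to 56 fragments. Dll3, a Notch ligand of the presomitic mesoderm, had 4 and 9. At its start (0.457 kb from it) a shared EoVP16 peak had 137 fragments (115 to 162) where EoV5 had 88 (70.6 to 108), and the 6 EoVP16-only peaks had 37 to 87. Hes7, an oscillating repressor of the somite clock, had 7 and 14. Rspo3, a Wnt agonist, was the loss, with 6 and 2 peaks. Msgn1 had 3 and 2, of which 2 were EoV5-only and 1 was EoVP16-only. An EoV5-only peak of 398 fragments there (360 to 439; chr12:11232289-11232927) was in EoGFP and BraGFP. At the matched multiple, which removes EoVP16 peaks only, none of the 17 was a gain. The list there summed to 17 fewer EoVP16 than EoV5 peaks. With the 20000 tallest peaks of each list 3 of the 17 were gains.

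The Notch list, which shares members with the presomitic list, and the list of epithelial-mesenchymal transition also had more EoVP16 peaks, as did coding genes as a whole (68937 EoV5 and 81367 EoVP16 peaks, counted once per gene). The 20 Notch pathway genes summed to 97 EoV5 and 130 EoVP16 peaks, with 14 having more, 4 fewer, 5 gains (background 13.2%) and no loss. Beside Hes7 and Dll3 the gains were Hes5, a Notch target (2 and 7 peaks), the receptor Notch1 (3 and 7) and the coactivator Maml1 (4 and 8), the last pair outside the rule for named genes and named after their values were seen. The 16 genes of epithelial-mesenchymal transition summed to 85 and 116, with 3 gains, a share near the background of 13.2%, at Snai1, the repressor that starts the transition (5 and 11), Vim, a mesenchymal intermediate filament (2 and 6), and Snai3 (1 and 4). Cdh2, which encodes N-cadherin, was a loss with 14 and 7. The 5 EoVP16-only peaks at Snai1 had 37 to 71 fragments. Zeb2, with 11 and 18 peaks, missed the call for a gain, and its difference of 7 became -3 at the matched multiple, -2 with the 20000 tallest peaks and -1 by the nearest gene. At the matched multiple the Notch list summed to 19 fewer and the transition list to 6 fewer EoVP16 peaks.

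**Figure D5:**
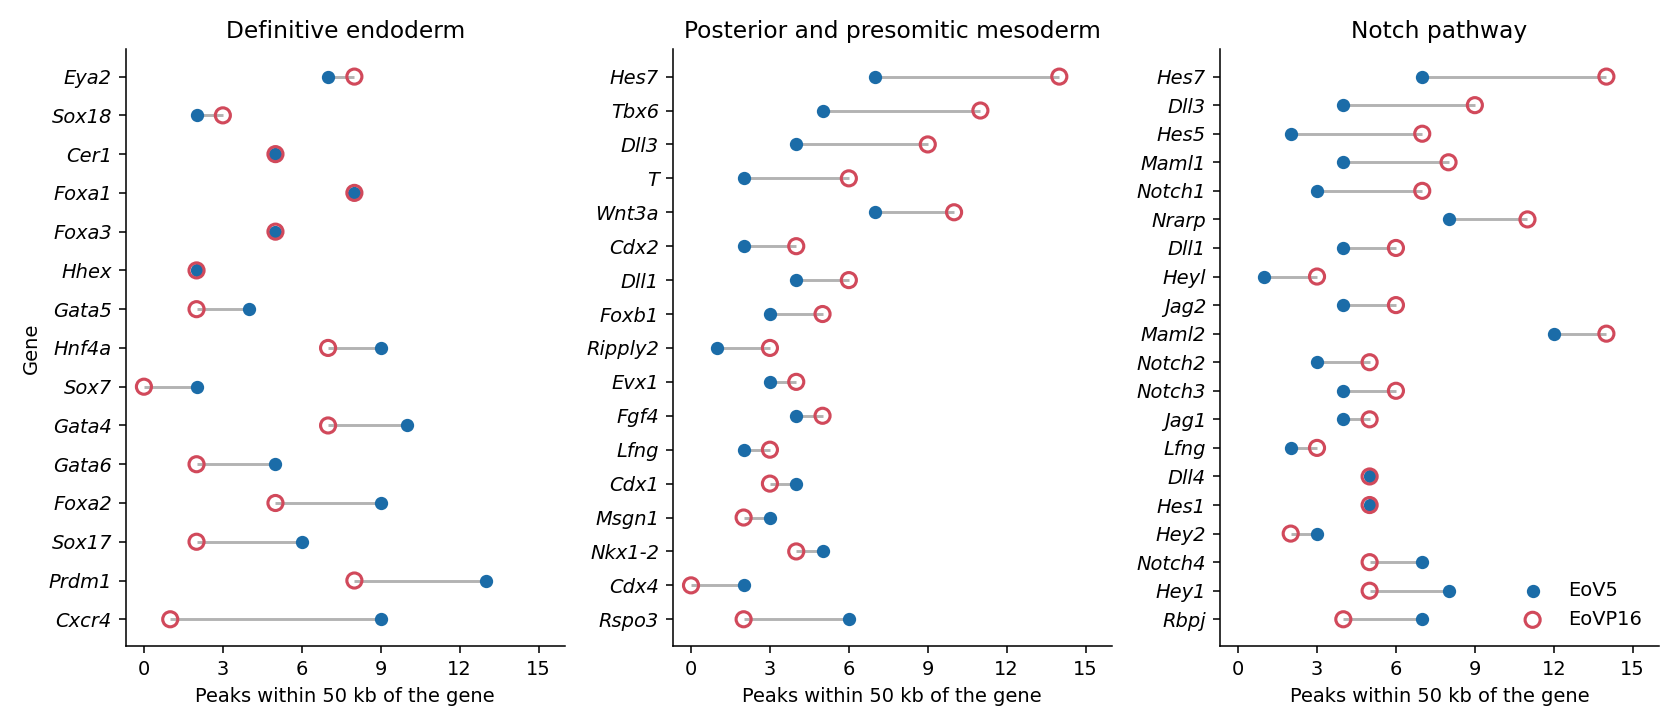
Peaks within 50 kb (x axis) of the genes (y axis) of 3 lists, 1 endoderm gene left out, with EoV5 as filled and EoVP16 as open points joined by a line. Of the endoderm genes plotted 9 of 15 have fewer EoVP16 peaks, down to 1 against 9 at Cxcr4, and of the presomitic genes 12 of 17 have more, up to 14 against 7 at Hes7.

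In the other developmental lists 0 to 3 genes each were gains and 0 to 2 were losses, against 13.2% and 4.11% of all genes. Primitive streak genes had 68 EoV5 and 84 EoVP16 peaks, with gains at T and at Tdgf1, the Nodal coreceptor, which had 0 and 3. Anterior and cardiac mesoderm genes had 82 and 79, with Foxc1 a gain (3 and 6) and Tbx5, a cardiac T-box factor, a loss (6 and 0) beside Gata6. The 6 EoV5 peaks at Tbx5 had 64 to 86 fragments. In the Nodal and activin list (103 and 121) Smad7, an inhibitory Smad, was a gain (4 and 8). The Wnt list (124 and 135) had a gain at Rnf43 (4 and 9) and losses at Rspo3 and Dkk1 (5 and 2), and the FGF list (79 and 82) had a gain at Spry2 (2 and 6) and a loss at Spred2 (7 and 3). Pluripotency genes had 52 and 48, with a gain at Sall4 (3 and 7) and losses at Prdm14 (4 and 1) and Tfcp2l1 (5 and 2). The BMP list had 98 and 105 with a loss at Smad5 (10 and 4), and the blood and endothelial list 83 and 77 with gains at Lyl1 (4 and 10) and Etv2 (3 and 7) and losses at Gata1 (6 and 3) and Sox17. Epiblast and neural genes had 53 and 71, with gains at Pou3f1 (3 and 8) and at Zic2 and Zic5, neighbours within 50 kb of each other (both 2 and 5). Of the gains named for these lists, Pou3f1 and Lyl1 kept the call with the 20000 tallest peaks and none kept it at the matched multiple. The losses at Prdm14, Tfcp2l1 and Smad5 kept it with the 20000 tallest, and the other losses did not.

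Ribosomal protein, heat shock and immediate early genes also had more EoVP16 peaks. Against 13.2% gains and 4.11% losses over all genes, cytosolic ribosomal protein genes summed to 118 and 173 (7 gains and no loss of 28), heat shock and proteotoxic stress genes to 57 and 85 (7 and 0 of 18), and immediate early genes to 92 and 128 (4 and 1 of 18). Examples are Rps18 (6 and 13), Rpl10a (4 and 9), Hsp90ab1 (4 and 8), the adjacent Hspa1a and Hspa1b (both 4 and 8), Fos (5 and 11), Fosb (5 and 12) and Ier2 (3 and 9), and Egr3 was the loss (8 and 4). Around the ribosomal genes 37 of 81 EoVP16-only peaks were at starts, against 3758 of 13246 around all coding genes (chromosome 18 left out). At the matched multiple the ribosomal list summed to 7 fewer EoVP16 than EoV5 peaks, and heat shock genes to 3 more. By the nearest gene alone, none of the ribosomal or heat shock genes was a gain. Corepressor genes had 75 and 83 peaks with gains at Hdac1 (3 and 8) and Tbl1xr1 (2 and 5), activator and chromatin genes 88 and 106 with gains at Tet3 (5 and 11) and Kmt2d (2 and 6), and replication-dependent histones 45 and 64 with a gain at H2bc4 (3 and 6).

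Among the genes of the 7 factors re-expressed in dKO cells, only T was called at 50 kb. Eomes had 4 and 5 peaks, Mesp1 5 and 7, Msgn1 3 and 2, Mixl1 6 and 5 and Six2 4 and 7. All 4 EoV5 peaks at Eomes were shared, and the 1 EoVP16-only peak there (84 fragments, 67.0 to 104; chr9:118505961-118507376) was in BraGFP and not in EoGFP. Mixl1, a homeobox gene of the streak, had an EoV5-only peak of 340 fragments (305 to 378) 4.53 kb from the gene, also in EoGFP. At the start of Six2 the shared site stood at 228 EoV5 fragments (199 to 260) against 121 EoVP16 fragments (100.4 to 144.6), at the 86.3 and 94.0 percentiles of their lists.

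The tallest peak near a gene was often not the same in both lists. Of 17368 genes with peaks of both, the tallest EoV5 and EoVP16 peaks overlapped at 44.2% (43.4 to 44.9), at 48.4% of gains and at 29.3% of losses. The 4 genes with the most peaks in all, Auts2 (43 and 29), Arhgap26 (36 and 19), Macrod2 (33 and 21) and Nav2 (29 and 20), each had more in EoV5.

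The T-box element was more frequent where both proteins had a summit. In windows from 250 bases before to 50 after the start, TCACACC or GGTGTGA occurred in 3.68% of all 21238 promoters. It occurred in 8.49% of the 1591 with summits of both lists (7.21 to 9.96), 4.86% of the 391 with an EoV5 summit alone (3.13 to 7.46), 3.01% of the 3522 with an EoVP16 summit alone (2.50 to 3.63) and 3.32% of those with neither (3.05 to 3.61). Promoters with only an EoVP16 summit thus held it about as often as promoters with none. By height, the element was in 15.9% of the tallest 20% of EoV5 promoter summits (12.6 to 19.8) and 4.55% of the lowest, and in 8.60% (7.04 to 10.5) and 3.13% for EoVP16. The median distance from summit to element was 27.5 bp in EoV5 (154 promoters) and 44 bp in EoVP16 (241 promoters). Base composition moved with the classes, with a median GC content of 63% for both, 62.3% for EoVP16 alone, 61.7% for EoV5 alone and 53.7% for neither, and its part in the differences was not tested. A match is a run of letters and was not shown to be bound.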

How the data were processed

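ChIP-seq peak lists of EoV5 and EoVP16, 1 library each, were analysed, with the EoGFP and BraGFP lists (positions only) used to look up sites. The genome build mm10 (GRCm38) and the tools MACS2, SAMtools 1.3.1, bedtools 2.27.0, Bowtie2 2.3.4 and Picard 1.56.0 are named in the submitters' processing notes. The control and the settings are not given in the sources used here. In the deposited lists the signal is the summit pileup in fragments, held as whole numbers, with no sign in them of scaling between libraries. The deposited ratio is the fold enrichment over the caller's background. The −log10 p and q of the authors' lists were not used. Library depth is unknown from these files. The depth that the pileups give is stated as Poisson intervals.

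Entries on contigs (7 and 6) and repeated spans (46 and 26) were dropped, leaving 21 chromosomes. Peaks overlapped if they shared at least 1 bp, and pairs meeting 1 to 1 entered the comparisons of summits and ranks. Genes and starts were those of RefSeq on GRCm38.p6 (21887 coding genes, of which 17492 had a start; none was listed on chromosome 18, which was left out of comparisons of starts). Members of the 20 gene lists and the lists themselves were chosen with earlier results of these data known. Lists overlap, and neighbouring genes share windows. Named genes were the 7 factors re-expressed in dKO cells, the 10 largest gains and losses at separate loci, up to 3 called members per list and direction, the genes nearest to the 8 tallest peaks of either list alone and to the 5 largest rank shifts each way, and the 5 genes with most peaks. That gave 102 genes, and others named were chosen after their values were seen. Values of 3 genes that the rule names are not reported here. Scripts ran in Python 3.11.15 with pandas 2.3.3, NumPy 2.4.6 and SciPy 1.17.1, and the counting was checked on simulated lists. Alternatives covered overlap rules, height, width, windows, chromosomes and thresholds.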

Additional observations from a re-analysis of the deposited data

How the results depend on the processing

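No paired analysis was possible because each construct has 1 library in the lists compared. For the same reason no replicate could be left out. Of 128 values of comparisons under alternatives 49 stayed within their error (or, for counts, within 1.5 times) and 79 moved. Of 864 values for single genes and list sums 578 kept their call, 223 lost it, 31 gained it, 24 moved and 8 that had been called, or were list sums, changed direction. The cause of a move was not tested except where a setting removes peaks, pairs or windows by construction. The alternatives on the background multiple, on peaks over 1 kb from starts, on the gene's own start and on the 250 bp before the start were chosen after seeing the data.

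The share of peaks overlapping the other list (EoV5, then EoVP16) was 47.23% and 49.83% when 50% of both peaks had to overlap, 47.39% and 50% with summits within 200 bp, 44.94% and 45.52% for the 20000 tallest, 60.22% and 76.65% for the taller 50% against the whole other list, and 39.11% and 73.71% with EoVP16 at the background multiple of the EoV5 minimum. The median summit offset was 20 bp both for the taller 50% and for peaks at most 1000 bp wide. Pairs at starts ranked higher in EoVP16 in 86.58% of all overlapping pairs and 86.56% of narrow pairs, where the share farther away was 49.22% and rho was 0.2494.

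Shares at starts are given for EoV5 shared, EoV5-only, EoVP16 shared and EoVP16-only peaks in turn. They were 31.97%, 7.667%, 32.17% and 32.79% within 5 kb, 22.84%, 6.387%, 22.61% and 27.75% with summits within 200 bp, 16.02%, 1.005%, 32.46% and 36.89% for the taller 50%, and 31.73%, 2.874%, 31.67% and 35.91% at the background multiple. In the taller 50% of each class 60.24% of EoV5-only peaks were in EoGFP and 7.728% in BraGFP, and 43% and 22.54% of EoVP16-only peaks. Requiring a summit inside the other peak put 6.403% of EoV5-only peaks in BraGFP.

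Gains and losses over all genes numbered 664 and 451 at 10 kb and 1210 and 372 when 3 times as many peaks were required. At the background multiple they numbered 354 and 2959. Gains numbered 420 by the nearest gene and 1314 (beside 1172 losses) from peaks over 1 kb from starts. Genes with both at their own start numbered 1999 with the 20000 tallest. Own starts with EoV5 alone numbered 475 within 5 kb and 640 at the background multiple, where EoVP16 alone had 2041. Promoters with no summit held the element in 2.739% of the 250 bp windows.

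Definitive endoderm losses numbered 1 at 10 kb, 1 with the 20000 tallest, 2 at 3 times and 9 at the background multiple. Presomitic gains numbered 1 at 10 kb, 1 at 3 times, 0 by the nearest gene and 0 at the background multiple. Notch gains numbered 1 at 10 kb, 3 with the 20000 tallest, 1 at 3 times, 0 by the nearest gene, 1 at the background multiple and 3 away from starts. Epithelial-mesenchymal transition gains numbered 0 at 10 kb, 1 by the nearest gene and 0 at the background multiple. Heat shock gains numbered 0 at 10 kb, 3 at 100 kb, 2 at 3 times, 0 by the nearest gene, 1 at the background multiple and 1 away from starts. Ribosomal gains numbered 1 at 10 kb, 13 with the 20000 tallest, 3 at 3 times, 0 by the nearest gene, 3 at the background multiple and 4 away from starts.

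Direction changed at the background multiple for the sums of the presomitic (-17), Notch (-19), epithelial-mesenchymal transition (-6) and ribosomal (-7) lists and for H2bc4 (-1). It changed by the nearest gene for Pou3f1 (-1) and Kmt2d (-1), and at 10 kb for Tfcp2l1 (1). Among genes that were not called, the difference also changed sign at the background multiple for Zeb2 (-3), Mesp1 (-2), Six2 (-1), Pknox2 (-3), A4gnt (-1) and Ipo11 (-1).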

Other observations

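The library of uninduced EoV5 cells carries a treatment label that names doxycycline while its title says it had none, and it was not analysed here. The labels give the doxycycline dose in conflicting units, so the dose is not printed.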
